A study of Mus musculus with 2 samples.

Results

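The mitochondrial solute carriers of the Slc25a family were examined in the mouse lens at 2 ages. Genes were taken as members when a probe set of the array carried their symbol alone and that symbol began with Slc25a and a digit. This gave 44 of the 18194 genes named on the array, on 93 probe sets. A probe set is a group of short probes that together give 1 signal intensity for a transcript. Where a gene had several probe sets, the brightest was chosen by its mean log2 intensity at the 2 ages.

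RNA came from pooled lenses of wild-type mice of the C57/BL6 strain at postnatal day 7 (P7), during rapid growth, and at postnatal day 60 (P60), in the young adult. Both groups share strain, tissue and wild-type genotype and differ by age. With 1 pool and 1 array for each age there are no replicates, no test between the ages could be made, and differences are given by size. The sources used here do not give the number of mice in a pool or their sex.

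Most Slc25a proteins sit in the inner mitochondrial membrane, where they exchange metabolites, nucleotides, phosphate, amino acids and cofactors between cytosol and matrix. Lens fibre cells lose their mitochondria as they mature, so oxidative metabolism of the lens rests mainly with the epithelium and the outer, younger fibres. The family therefore marks what is exported from and imported into the mitochondria of those cells.

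Values are scaled signal intensities on a linear scale. A floor of 103.9, the median of all values on both arrays, was set, and a gene counted as measured when it exceeded the floor on either array. Lower values were raised to the floor before the log2 ratio of P60 over P7 was taken, and folds that rest on a raised value are lower bounds. Of the 44 carrier genes 39 were measured, 34 of them above the floor at both ages, 3 at P7 alone and 2 at P60 alone. The testis ADP/ATP carrier Slc25a31, Slc25a41, Slc25a27, Slc25a48 and Slc25a54 lay under the floor at both ages on the chosen probe set. Of 86 probe sets that name receptors of smell or taste, which lens is not known for, 7 at P7 and 9 at P60 exceeded the floor, so a value just above it is weak evidence of a transcript. Slc25a45 (93.8 at P7 and 110 at P60) stayed below the receptors' 95th percentile of 123 at both ages.

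The comparison asked which carrier transcripts differ between the lens at P7 and at P60. Of the 39 measured carriers 6 were at least 2-fold higher at P60, 2 were at least 2-fold lower and 31 lay within 2-fold. The background is close to this: of all 13029 measured genes 11.5% were 2-fold higher and 9.44% were 2-fold lower, against 15.4% and 5.13% of the carriers. The carriers' median log2 ratio was -0.08 and that of all measured genes 0.02. With quantile normalization of the arrays the carriers' median was 0.01 and with median centring -0.13, so its sign is not settled. The quartiles of the carriers were -0.30 and 0.49, and the extremes were -1.69 and 1.96. The family was thus centred near 0, with single carriers to either side. In pooled whole lenses, fewer cells of a type and less RNA per cell cannot be told apart.

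As a guide to error within an array, probe sets of the same gene differed in their log2 ratio with an SD of 0.58, pooled over 4239 genes with several probe sets above the floor. That spread holds nothing of the variation from mouse to mouse or from array to array. By its measure 13 of 39 carriers (33.3%) lay beyond 1 SD from 0, against 42.9% of all measured genes.

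**Figure D1:**
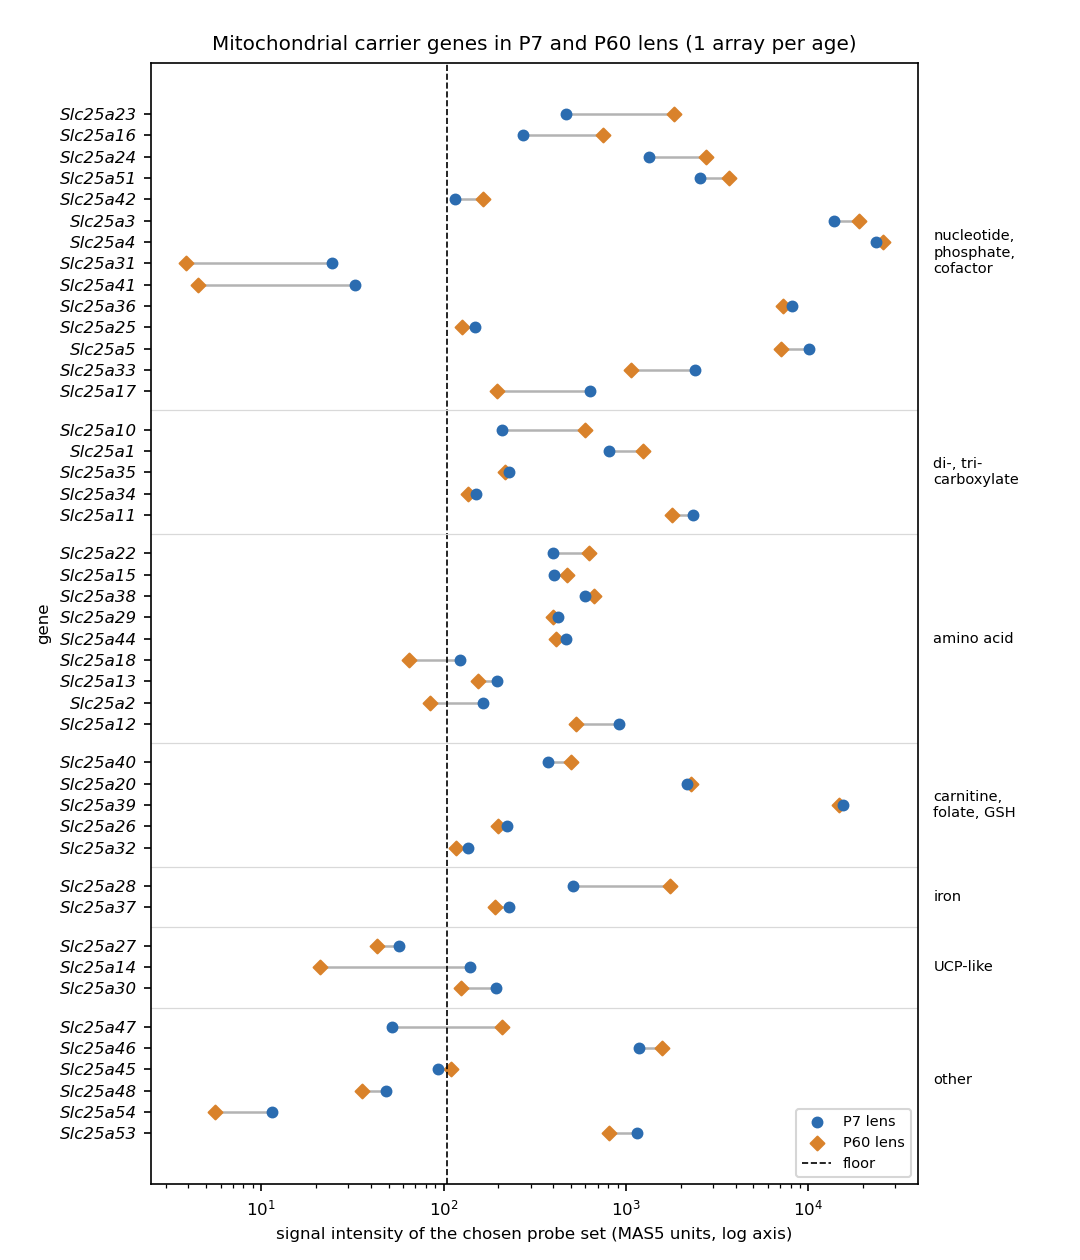
Signal intensity of the chosen probe set of each of the 44 carrier genes at P7 (circles) and P60 (diamonds), on a log axis, grouped by substrate, with the floor of 103.9 dashed; GSH stands for glutathione and UCP-like for relatives of the uncoupling proteins. Slc25a23, Slc25a28, Slc25a16 and Slc25a10 show the widest gaps towards P60, Slc25a17 and Slc25a33 the widest towards P7 among carriers above the floor at both ages.

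Of the 5 carriers that were 2-fold higher on values above the floor at both ages, 3 (Slc25a23, Slc25a16 and Slc25a24) handle nucleotides, phosphate or cofactors, Slc25a28 carries iron and Slc25a10 carries dicarboxylates. Slc25a23, a calcium-regulated carrier that exchanges ATP-magnesium for phosphate, read 470 at P7 and 1832 at P60. It was 3.90-fold higher at P60 (log2 ratio 1.96), above 97.7% of all measured genes. Slc25a28, known as mitoferrin 2, brings iron into mitochondria for haem and iron-sulfur clusters in non-erythroid cells. It read 510 at P7 and 1740 at P60, 3.41-fold higher. Slc25a10, the dicarboxylate carrier that exchanges malate or succinate for phosphate, read 210 at P7 and 599 at P60. Its ratio was 2.86-fold on this probe set, while its other probe set lay under the floor at both ages. Slc25a16, a carrier linked to coenzyme A supply of the matrix, read 272 and 746, which is 2.74-fold higher. Slc25a24, a close relative of Slc25a23 with the same kind of calcium-regulated exchange, read 1345 and 2733, 2.03-fold higher.

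For Slc25a24 the probe sets went apart. Its dimmer probe set read 133 at P7 and 69.1 at P60, a log2 ratio of -0.36 against 1.02 on the chosen one. On the chosen probe set the ratio was 0.96 after quantile normalization and 0.97 after median centring, just inside 2-fold. Slc25a47, a carrier best known from liver, was seen at P60 alone, with 52.3 at P7 and 210 at P60, and was at least 2.02-fold higher. Its single probe set is of a type that can also match transcripts of other genes. With the floor raised 2-fold the bound for Slc25a47 fell to a log2 ratio of 0.02, and after median centring it was 0.99.

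The 2 carriers that were 2-fold lower both handle nucleotides or cofactors made from them. Slc25a17 is the member of the family that works in the peroxisome, where it carries coenzyme A and related cofactors, and so it is no mitochondrial carrier in the strict sense. It read 635 at P7 and 197 at P60, 3.23-fold lower, which placed 2.56% of all measured genes below it. Its other probe set was under the floor at both ages. Slc25a33, a pyrimidine nucleotide carrier that supplies the mitochondrial genome and its transcripts, read 2385 at P7 and 1069 at P60, 2.23-fold lower on its single probe set. In the same P60 pool the 5′ to 3′ signal ratio of beta-actin, a sign of RNA and labelling quality, was 0.606 against 0.785 at P7, and that of Gapdh 1.29 against 1.39. That of 18S RNA went the other way, with 1.58 against 1.09. For pyruvate carboxylase it was 0.0911 against 0.616, with the 5′ signal at P60 under the floor. Some bacterial control transcripts, which are added in the laboratory, moved too. Their ratio was 0.0439 at P60 against 0.158 at P7 for dap and 0.372 against 0.836 for phe. For thr it was 0.0704 against 0.146, with the 5′ signal at P60 under the floor. For lys the direction depended on the probe sets, with 0.388 against 0.337 on one pair and 0.833 against 1.502 on another. So it did for bioB, with 0.831 against 1.225 and 0.73 against 0.43, and for bioD, with 0.433 against 0.857 and 0.920 against 0.819. On the first bioB pair the 5′ signal was 1292 at P60 against 208 at P7. For bioC the ratio was 0.960 against 0.914, with a further pair at 0.923 against 0.795. Whether these shifts enter the lower readings was not tested.

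The promoters of the carriers with the 2 highest and the 2 lowest ratios among those above the floor at both ages are shown, so that both directions are seen. Slc25a10 and Slc25a16 differed more between the ages than Slc25a33 but are not among them. The sequences are from RefSeq on GRCm38.p6 and run 5′ to 3′ from 250 bases before to 50 bases after the first listed transcript start, on the minus strand for all 4. Capitals mark the GC box (GGGCGG) and the CCAAT box (CCAAT), each searched on both strands.
Slc25a23, chr17:57059814-57060113: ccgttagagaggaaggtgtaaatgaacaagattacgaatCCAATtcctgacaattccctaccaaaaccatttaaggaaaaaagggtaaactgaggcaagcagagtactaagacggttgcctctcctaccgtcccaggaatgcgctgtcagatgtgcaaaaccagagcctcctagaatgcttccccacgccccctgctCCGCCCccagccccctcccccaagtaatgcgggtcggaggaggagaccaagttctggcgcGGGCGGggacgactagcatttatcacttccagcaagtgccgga
Slc25a28, chr19:43674832-43675131: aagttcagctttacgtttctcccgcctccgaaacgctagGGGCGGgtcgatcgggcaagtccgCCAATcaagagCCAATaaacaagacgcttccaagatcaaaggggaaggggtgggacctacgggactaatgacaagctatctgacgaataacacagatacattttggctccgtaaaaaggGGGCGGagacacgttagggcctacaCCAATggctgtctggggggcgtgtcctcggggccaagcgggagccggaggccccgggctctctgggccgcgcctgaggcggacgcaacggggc
Slc25a17, chr15:81360716-81361015: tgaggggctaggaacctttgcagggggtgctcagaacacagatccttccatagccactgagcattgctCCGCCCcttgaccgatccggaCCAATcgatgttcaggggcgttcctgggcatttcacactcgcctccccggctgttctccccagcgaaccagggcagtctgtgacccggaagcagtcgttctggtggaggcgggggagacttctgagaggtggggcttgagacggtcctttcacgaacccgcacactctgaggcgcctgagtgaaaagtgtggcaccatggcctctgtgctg
Slc25a33, chr4:149774218-149774517: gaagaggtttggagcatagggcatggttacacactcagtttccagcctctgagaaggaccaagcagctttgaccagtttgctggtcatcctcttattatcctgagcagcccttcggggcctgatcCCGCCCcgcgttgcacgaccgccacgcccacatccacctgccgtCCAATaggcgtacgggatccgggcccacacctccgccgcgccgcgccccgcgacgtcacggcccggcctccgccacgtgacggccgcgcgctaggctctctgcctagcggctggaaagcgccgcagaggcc

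All 4 windows hold at least 1 GC box and at least 1 CCAAT box, the 2 higher genes as well as the 2 lower ones, so these letters did not separate the directions. The Slc25a23 window has 2 GC boxes and 1 CCAAT box, that of Slc25a28 2 and 3, and those of Slc25a17 and Slc25a33 1 of each. None of the 4 holds a TATA box (TATAAA). The Slc25a17 window has 1 match to the site of the ETS factor GABP (CCGGAAG), and the Slc25a33 window has 1 E-box (CACGTG).

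Promoters of 34 of the 44 carriers were matched. GC boxes were found in 29 of these 34 genes (85.3%), against 38.2% of all 27025 genes with a promoter and 49.2% of 17492 protein-coding genes, counting a gene when any of its listed starts had a match. The median GC content of the first listed window was 60.5% in carriers, 52.7% in all genes and 56.3% in protein-coding genes, and richer windows hold such letters more often. CCAAT boxes were in 52.9% of carriers, 41.1% of all genes and 42.3% of protein-coding genes. In the same order, GABP sites were in 20.6%, 9.93% and 12.9%, and E-boxes in 20.6%, 8.09% and 8.91%. A TATA box was in 1 of the 34 carriers (2.94%), the glutamate carrier gene Slc25a18, against 15.7% of all genes and 14.8% of protein-coding genes. The core GCGCATGC of NRF1, a regulator of nuclear genes for mitochondria, was in 2 carriers (5.88%), against 3.05% of all and 3.94% of protein-coding genes. The short site AAGGTCA of oestrogen-related receptors was in 1 (2.94%), against 5.38% of all and 4.73% of protein-coding genes. These matches describe letters in the windows and not binding.

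**Figure D2:**
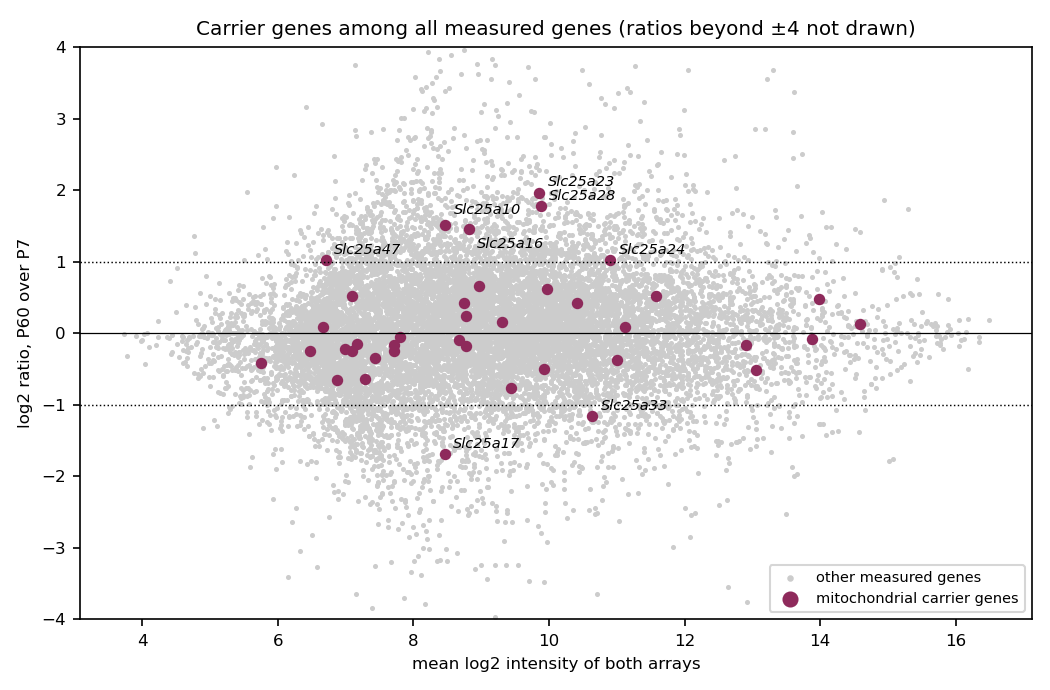
Log2 ratio of P60 over P7 against the mean log2 intensity of both arrays for the 39 measured carriers (large points) and all other measured genes (grey), with 2-fold limits dotted. The carriers spread around 0 within the cloud, and the 8 that reached 2-fold are named.

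Among carriers of adenine nucleotides and phosphate, the main ADP/ATP carriers and the phosphate carrier, which feed ATP synthase, stayed within 2-fold. Slc25a4 (ANT1), the ADP/ATP carrier typical of muscle and heart, read 23432 at P7 and 25683 at P60, a log2 ratio of 0.13. Its 2 other bright probe sets had ratios of 0.00 and 0.09, and a dim one with 157 at P7 and 139 at P60 was at -0.17. Slc25a5 (ANT2), the isoform typical of dividing cells, read 10108 and 7079, a ratio of -0.51. All 8 Slc25a5 probe sets were measured, and 7 of them were below 0, from -0.93 to -0.22, with the eighth at 0.36. Of the 8, 6 are of a type that can match similar sequences. The 2 without that mark differed in direction: one read 3630 and 2286, a ratio of -0.67, and the other is the one at 0.36, with 534 and 684. Slc25a3, the phosphate carrier, read 13754 and 19049, a ratio of 0.47.

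Thus on the chosen probe sets the ratio of ANT1 was slightly above 0 and that of ANT2 below it, while each gene had a probe set on the other side. In the same pools 6 of 8 measured genes of dividing cells were 2-fold lower at P60 (median -1.80), and their summed intensity was 5035 at P7 and 1544 at P60. Their part in the Slc25a5 and Slc25a33 values was not tested. Of 10 skeletal muscle genes 6 were under the floor at P7 and 8 at P60, with summed intensities of 786 and 787. Acta1, Myh4, Myh1, Mb, Tnnt3 and Ckm were under it at both ages on the chosen probe sets, although a further probe set of Ckm had a ratio of 1.39. Mylpf read 234 and 298, Actn3 read 109 and 223 and was 2.05-fold higher, and Pvalb and Tnni2 were above the floor at P7 alone. The part of muscle RNA in the Slc25a4 value was not tested.

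The calcium-regulated ATP-magnesium carriers had unequal ratios. Slc25a23 and Slc25a24 were higher on the chosen probe sets. Slc25a25, the third of them, read 149 and 126 near the floor, a ratio of -0.25 with a dimmer probe set at 0.20. Slc25a41, the relative without calcium-binding domains, was under the floor with 32.5 and 4.52.

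Both pyrimidine nucleotide carriers had ratios below 0. Beside Slc25a33, its relative Slc25a36 read 8128 and 7252 on its brightest probe set, a ratio of -0.16. Its 2 other probe sets were at -0.53 and -1.73, the latter with 1389 at P7 and 419 at P60. All 3 lay below 0, but they differed by more than the SD of 0.58 between probe sets.

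The NAD carrier Slc25a51 and the coenzyme A carrier Slc25a42 had ratios above 0 on the chosen probe sets, unlike the peroxisomal Slc25a17 at -1.69. Slc25a51 read 2541 and 3652, a ratio of 0.52, with its other probe sets at 0.81 and -0.76. Slc25a42 was close to the floor with 115 and 164, and both of its probe sets were above 0 (0.51 and 0.20). Of the 12 measured carriers of nucleotides, phosphate and cofactors, 3 passed 2-fold upward and 2 downward, and the median was 0.30.

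Carriers of di- and tricarboxylates link the citric acid cycle to the cytosol. Besides Slc25a10, the citrate carrier Slc25a1, which exports citrate for fatty acid and sterol synthesis, read 808 and 1238, a ratio of 0.62. Slc25a11, the oxoglutarate and malate carrier of the malate-aspartate shuttle, read 2336 and 1797, a ratio of -0.38. The little studied Slc25a34 (151 and 136) and Slc25a35 (227 and 218) had ratios of -0.15 and -0.06. In this class of 5 measured genes the one 2-fold difference was that of Slc25a10, and Slc25a1 alone of the rest exceeded the SD between probe sets.

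No amino acid carrier among the 9 measured reached 2-fold on its chosen probe set, and their median was -0.18. Slc25a12 (aralar), the aspartate and glutamate carrier of the malate-aspartate shuttle, read 910 and 533, a ratio of -0.77, with a second probe set near the floor at 0.00. Its relative Slc25a13 (citrin) read 195 and 154, a ratio of -0.34. The glutamate carrier Slc25a22 read 399 and 630, a ratio of 0.66, whereas the glutamate carrier Slc25a18 was above the floor at P7 alone (124 and 64.4). Among ornithine carriers Slc25a15 read 405 and 477 (0.24), and Slc25a2 read 164 and 84.3, the latter under the floor, a bound of -0.66. The shuttle carriers Slc25a11, Slc25a12 and Slc25a13 thus all had ratios below 0 on the chosen probe sets, none of them by 2-fold. The direction of Slc25a12 depends on that choice: with the log2 intensities of its 3 probe sets averaged before the floor was set, 1 of them under the floor at both ages, its ratio was 0.52.

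Slc25a29, which carries basic amino acids such as arginine and lysine, had 5 measured probe sets, and the chosen one was the lowest of them in ratio. The chosen probe set read 423 and 397, a ratio of -0.09. The 4 others had ratios from 0.62 to 1.34, among them 1 that read 219 at P7 and 484 at P60. Of these 4, 3 were under the floor at P7, with 82.9, 31.7 and 31.1. With the log2 intensities of all 5 averaged before the floor was set, so that those 3 readings enter as they are, the ratio was 1.40, above that of any single probe set on floored values. Slc25a44, a carrier of branched-chain amino acids, differed the other way on 1 of 3 probe sets, with the chosen probe set at -0.18 (467 and 411), one at -0.03 and one at -1.50 (535 at P7 and 189 at P60). The glycine carrier Slc25a38, which supplies the first step of haem synthesis, was level with 599 and 667, a ratio of 0.16.

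Carriers of carnitine, folate, the methyl donor and glutathione stayed near 0 on the chosen probe sets, with ratios from -0.22 to 0.43 in 5 of 5 measured. Slc25a20, which brings acylcarnitines into the matrix for fatty acid oxidation, read 2152 and 2281, a ratio of 0.08. Slc25a39, a carrier that imports glutathione, read 15422 and 14623, a ratio of -0.08, but its 3 other measured probe sets were at 0.31, 0.66 and 0.77. Its relative Slc25a40 read 372 and 500, a ratio of 0.43. Slc25a26, the S-adenosylmethionine carrier, read 222 and 199, and Slc25a32, the folate carrier, read 137 and 118, near the floor. Of these genes Slc25a39 alone had probe sets above the SD of 0.58, 2 that were not chosen. The brighter of them read 9352 at P7 and 14746 at P60, close to the chosen one at P60.

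The 2 mitoferrins differed between them. Slc25a28 (mitoferrin 2) was 3.41-fold higher at P60, whereas Slc25a37 (mitoferrin 1), the iron carrier of developing red cells, read 229 and 193, a ratio of -0.25. Red cell RNA was lower at P60 in the same pools: a probe set shared by beta-globin genes read 9887 at P7 and 245 at P60, and one shared by alpha-globin genes 18993 and 145. The erythroid genes with probe sets of their own summed to 533 at P7 and 263 at P60, 5 of 7 of them being under the floor at P7 and 7 of 7 at P60, including Alas2. The part of red cell RNA in the Slc25a37 value was not tested.

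Relatives of the uncoupling proteins were dim. Slc25a14 (UCP5) was seen at P7 alone (139 and 21.0), a bound of -0.42. Slc25a30, a kidney-type relative, read 195 and 124 with a ratio of -0.65, and its 2 other measured probe sets were at -0.04 and 0.16. Slc25a27 (UCP4), known from brain, had 4 probe sets, none above the floor. At P60 Slc25a30 was thus the one member of this class above the floor, and close to it.

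The remaining carriers have no settled substrate or act outside transport. Slc25a46, an outer membrane protein that shapes mitochondria, read 1178 and 1572, a ratio of 0.42, with its other probe set at -0.47. Slc25a53 read 1155 and 812, a ratio of -0.51, with its other probe set at -0.57. Slc25a48 was under the floor on the chosen probe set, but a dimmer one read 5.59 at P7 and 172 at P60, a bound of 0.73.

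**Figure D3:**
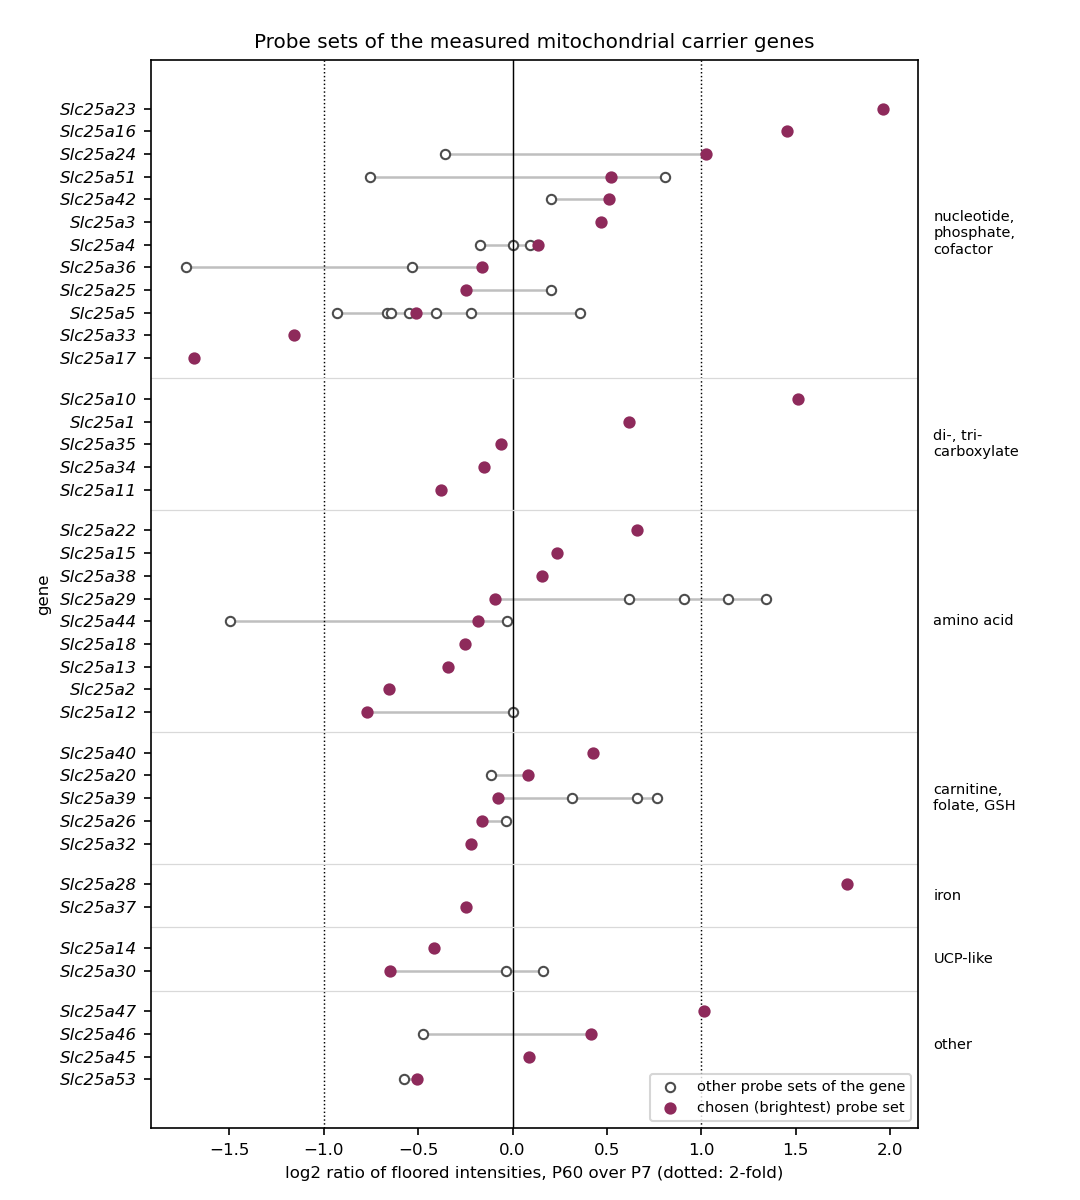
Log2 ratio of P60 over P7 on floored intensities for every measured probe set of the 39 measured carriers, with the chosen probe set filled, the others open and 2-fold limits dotted. Slc25a24, Slc25a29, Slc25a36, Slc25a44, Slc25a51 and Slc25a5 span more than 1 log2 unit between their own probe sets.

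Agreement between probe sets limits how single carriers can be read. Of the 39 carriers 16 had several measured probe sets. In 5 of these all probe sets lay on the same side of 0, namely Slc25a26, Slc25a36, Slc25a42, Slc25a44 and Slc25a53. In 6 they differed by more than 1 log2 unit. Of the 8 carriers past 2-fold, Slc25a24 alone had a second measured probe set, and that one pointed the other way. The other 7 each rest on 1 measured probe set, so their ratios have no second reading on these arrays.

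Genes that work with the carriers were taken from 8 lists, with 82 measured genes in all, of which 5 were 2-fold higher and 10 lower (6.10% and 12.2%, against 11.5% and 9.44% of all measured genes). The median was -0.22, beside -0.08 for the carriers. Each list is given by its counts and median, and none was tested.

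Machinery that imports carriers into mitochondria had the lowest median, -0.69, with 4 of 12 lower and none 2-fold higher. Timm22, the channel of the inner membrane translocase that inserts carriers, read 2118 and 887, a ratio of -1.26, although a further probe set was at 0.56. Among the small chaperones that escort carriers through the intermembrane space, Timm9 read 333 and 107, 3.12-fold lower, with the P60 value just over the floor and -0.03 on a further probe set. Also lower were Timm8b with 5464 and 1784, 3.06-fold lower, and Timm8a1 with 2990 and 1095, 2.73-fold lower. Timm10, the partner of Timm9, was at -0.75. Tomm70a, the outer membrane receptor for carrier precursors, was the one member above 0 on the chosen probe sets. It read 1858 and 3326 (0.84), with all measured probe sets between 0.58 and 1.09. Probe sets lay on both sides of 0 for Tomm7 (-1.15 to 0.72), Timm10b (-0.63 to 0.67) and Tomm20 (-1.06 to 0.32). With the dimmest probe set of each gene, or their mean, 2 genes of this list were lower in place of 4, and with the floor raised 2-fold 3 were. After quantile normalization, or without probe sets of a type that can match similar sequences, 5 were lower.

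Enzymes of the malate-aspartate shuttle and of citrate use had a median of 0.51, with 2 of 9 higher and none lower. Gpd1, of the glycerol phosphate shuttle, read 600 and 1364, a ratio of 1.19, with its other probe set at 0.72. Acly, which splits the citrate that Slc25a1 exports, read 2434 and 5426, a ratio of 1.16, with its probe sets from -0.25 to 1.33. Got1, the cytosolic aspartate aminotransferase, had the lowest ratio, -0.25. With the dimmest probe set of each gene, or their mean, 0 genes of this list were 2-fold higher.

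Enzymes of carnitine use and fatty acid oxidation, which act before or after Slc25a20, had a median of 0.42, and 1 of 9 was lower. That was Cpt1a, which makes acylcarnitines at the outer membrane, with 4388 at P7 and 1069 at P60, 4.11-fold lower and probe sets from -2.04 to -0.69. Acadm, an acyl-CoA dehydrogenase of medium chains, was highest at 0.67. Cpt1a and Slc25a20, which act one after the other, thus differed in their ratios (-2.04 and 0.08). With the mean of the probe sets 1 gene of the list was higher and 2 were lower.

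Genes of haem and iron-sulfur cluster synthesis, which use the iron carried by mitoferrins, numbered 13 measured, with 2 higher, 2 lower and a median of -0.21. Both higher genes belong to haem synthesis. Alad, an early enzyme of haem synthesis, read 1204 and 5075, 4.21-fold higher, with its probe sets from 2.08 to 3.14. Fech, which inserts iron into haem, read 619 and 1339, a ratio of 1.11, with its probe sets from 0.55 to 1.11. Both lower genes belong to iron-sulfur assembly, the scaffold Iscu (6517 and 2880, 2.26-fold lower) and Isca2 (5141 and 2159, 2.38-fold lower). With the dimmest or the mean of the probe sets 1 gene of the list was higher in place of 2. The same held without probe sets of a type that can match similar sequences. With the dimmest probe sets, with their mean or without a floor 3 genes were lower in place of 2.

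ATP synthase subunits had a median of -0.39, with 1 of 14 lower and none higher. Atp5e, a small subunit, was lowest at -1.05 (14665 and 7098) and Atp5g2, a subunit of the membrane ring, highest at 0.48. After quantile normalization, or without probe sets of a type that can match similar sequences, 0 subunits were 2-fold lower. With the dimmest probe sets 1 subunit was 2-fold higher and 1 lower. Atp5a1 was at 0.04 on its chosen probe set and at 1.89 on a further one. Regulators of mitochondrial biogenesis had a median of 0.19, with 1 of 12 higher and 1 lower. Esrra, an oestrogen-related receptor, read 215 and 513, a ratio of 1.26, and Gabpb1, a subunit of GABP, read 581 and 260, a ratio of -1.16. With the dimmest or the mean of the probe sets 0 regulators were higher. The coactivator Ppargc1a was near the floor, with 135 and 227.

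Porins of the outer membrane, through which metabolites reach the carriers, were within 2-fold, from Vdac2 at -0.23 to Vdac1 at 0.98 (8133 and 16034, with a further probe set at -0.77). Of 10 other inner membrane transporters and carrier relatives 1 was lower, Mtch2 (4474 and 2231, 2.01-fold), and Mtch1 was highest at 0.73. Without a floor, or with the dimmest probe sets, 0 of them were lower. Ucp1, the uncoupling protein of brown fat, was under the floor at both ages with 43.8 and 44.5, as were the fat markers Adipoq and Cidea. The other 2 of the 5 brown fat genes were just above it at both ages, Dio2 with 108 and 119 and Elovl3 with 135 and 155.

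**Figure D4:**
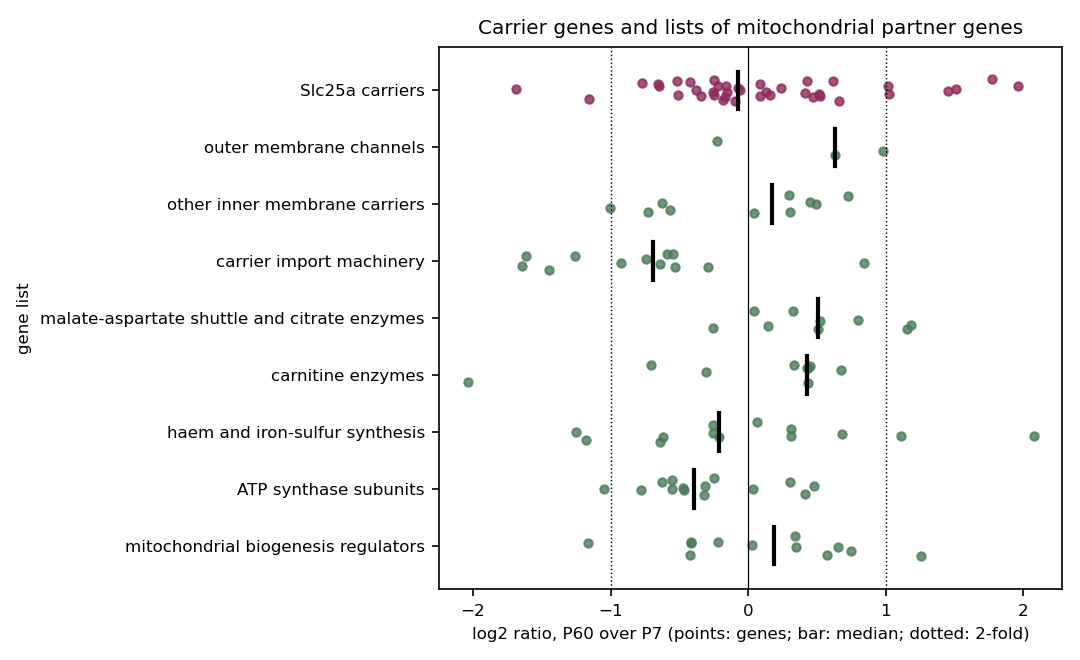
Log2 ratio of P60 over P7 for the 39 measured carriers and for the measured genes of 8 partner lists (points are genes, bars are medians, dotted lines are 2-fold). The carrier import machinery lies mostly left of 0 with a median of -0.69, and the enzymes of the shuttle and citrate list mostly right of it with a median of 0.51.

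Both pools showed lens. Of 7 fibre genes, such as Cryaa and Mip, 7 lay within 2-fold, with summed intensities of 361467 at P7 and 360568 at P60. Of 6 epithelial genes 3 were 2-fold higher and 1 lower, with sums of 27579 and 54000. The higher ones were Gja1 (12531 and 29700), Cdh1 (2869 and 7843) and Aqp1 (728 and 4003). Foxe3 was the lower one (288 and 110), Prox1 was at -0.54 and Pax6 at 0.59. Gja1, the largest part of the sums, had probe sets from -0.37 to 2.72. Of 8 measured vascular endothelial genes 6 were 2-fold lower, with sums of 4166 and 1021 over the list and 8 of 10 genes under the floor at P60. Of 6 measured macrophage genes 1 was 2-fold higher and 1 lower, with sums of 1295 and 1316 over the list. Of 6 measured photoreceptor genes 1 was 2-fold higher and 2 lower, with sums of 2900 and 2045 over the list. Among the latter Gnat1 read 12.8 at P7 and 789 at P60, Pdc 1147 and 258, and Nrl 869 and 267. The part of these shares of cells in the carrier values was not tested.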

How the data were processed

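RNA of pooled P7 and P60 lenses was labelled with biotin and hybridised to a mouse Affymetrix array, 1 per age. The authors deposited linear signal intensities for 45101 probe sets, made with MAS5 per the submitters' processing notes. No version is given in the sources used here, and detection calls were not used. The mean of each array, trimmed by 2% at either end, was 500.0.

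Names came from a platform annotation table (34958 probe sets with 1 symbol, 932 with several, 9211 with none), updated by gene number for 34754. The floor, the choice of the brightest probe set and the 2-fold limit are described above. The calculation, in Python 3.11.15 with pandas 2.3.3 and numpy 2.4.6, was tested on simulated data. Alternatives were other floors, a pseudocount of 16, other probe sets, other scalings and other fold limits. The carriers and gene lists were chosen with earlier results of these data known. All carriers are named, and of each partner list at least the highest and lowest gene. The number of arrays limits the precision. No protein sequences were used. No genome build is attached to the intensities.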

Additional observations from a re-analysis of the deposited data

How the results depend on the processing

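The 6 higher, 2 lower and 31 other measured carriers rest on the floor, the probe set and the fold limit. Lower carriers numbered 5 without a floor (pseudocount of 16, all 44 carriers counted), where 16.1% of all genes were lower. They numbered 1 of 32 with the dimmest probe sets and 1 of 36 with their mean. Of all measured genes 10.7% and 10.0% were lower there. With either of these choices, partner genes higher at P60 fell from 5 to 2. At 1.5-fold 8 of 39 carriers were higher and 5 lower, beside 22.7% and 20.1% of all measured genes. Partner genes past that limit numbered 14 higher and 21 lower. At 3-fold 2 carriers were higher and 1 lower, beside 4.23% and 3.11% of all measured genes. Past this limit 1 partner gene was higher and 3 lower. Slc25a24 changed direction with the dimmest probe set, to -0.36. Of the ratios of single carriers under the alternatives run, 274 moved by less than 0.58, the SD between probe sets, and 16 moved by more, Slc25a24 among them. Of the 44 carriers 21 have 1 probe set, which the probe set alternatives could not move, so the 274 are no measure of stability. Of all 290 ratios 17, from 12 carriers, had the opposite sign to the reported ratio, 7 of them by a move beyond that SD. With the mean of the probe sets Slc25a12 went from -0.77 to 0.52 and Slc25a3 from 0.47 to -0.38. The Slc25a3 mean takes in a probe set under the floor at both ages, with 80.9 at P7 and 34.6 at P60. With the dimmest probe set Slc25a51 went from 0.52 to -0.76 and Slc25a46 from 0.42 to -0.47. Slc25a10 was at 0.12 with the mean of its probe sets, and Slc25a17 had no value with the dimmest or mean ones, being under the floor at both ages. Slc25a16, Slc25a23, Slc25a28 and Slc25a33 stayed past 2-fold under every floor, probe set and scaling alternative; each has 1 probe set, so the probe set alternatives could not move them. Both scalings changed the median of all measured genes by less than 0.1. No paired analysis was possible because each age has 1 array. Signals near the floor limit what can be said of the dim carriers.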
